A study of Mus musculus with 18 samples.

Results

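The transcripts of the translation initiation and elongation factors were followed in group 2 innate lymphoid cells (ILC2) of mouse bone marrow and lung. The genes were chosen by symbol: every row of the deposited count table beginning with Eif1 to Eif6, or with Eef1 or Eef2, except the Eif2ak kinases, with a summed count of at least 30 over the 18 libraries. Of 64 matching rows among 24781, 56 met the minimum, 47 of them Eif and 9 Eef genes. Just inside it lay Eif4ebp1 and Eef1akmt2 (33 counts each), Eef1e1 (34) and Eif2b1 (35). Just outside lay Eef1akmt1 (26), Eif2b5 (25), Eef1akmt4 (14), Eif2b3 (11) and Eif5a2 (7), while Eef1a2, Eif4e1b and Eef1akmt4-ece2 had 0 counts. The symbols also cover genes that act on the factors rather than as factors, such as the eIF4E-binding inhibitors and the methyltransferases, and Eif5a, whose protein acts in elongation despite its name.

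ILC2 are lymphocytes without rearranged antigen receptors that release type 2 cytokines. The libraries formed 6 groups of 3: mature ILC2 of bone marrow, immature ILC2 (ILC2 progenitors) of bone marrow, and lung ILC2, each from control mice with the genotype Rag2 KO and from CD45 KO x Rag2 KO mice. Every mouse therefore lacked Rag2, and with it T and B cells, controls included. CD45, encoded by Ptprc, is a receptor tyrosine phosphatase of blood cells. Ages, sexes and the number of animals behind each library are not given in the labels, so p-values measure the spread between these libraries, which may be technical. The labels give 200 sorted cells per library, whereas the extraction protocol speaks of 100 cells in a tube.

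Translation of an mRNA starts when the cap-binding factors of the eIF4 group bring it to the small ribosomal subunit, which carries the multi-subunit eIF3, the initiator tRNA held by eIF2, and eIF1 and eIF1A, which keep the subunit scanning until a start codon is met. eIF5 and eIF5B then complete start codon recognition and join the large subunit. In elongation eEF1A delivers each aminoacyl-tRNA, the eEF1B complex recharges eEF1A with GTP, and eEF2 moves the ribosome on by a codon. Messages of several of these factors, the elongation factors above all, begin with a pyrimidine tract that places their translation under mTOR control, a layer that transcript counts do not record.

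Total counts were 68077 to 122250 per library, and a count of 3 corresponds to 25.3 to 44.7 CPM, the normalised unit used here (counts scaled to a common library size with TMM factors). Ptprc was lower in every CD45 KO library (42.0 to 238 CPM) than in every control library (253 to 628 CPM), and since the deleted part of the gene is not given in the labels, the remaining counts say nothing of the allele. Of 16 ILC2 markers 15 had counts, and Ptgdr2 was at 0. Their sum was 6848 to 9335 CPM in marrow and 12996 to 16182 CPM in lung. Markers of other lineages summed to at most 238 CPM for T cells, 33.7 for B cells, 17.6 for NK cells and ILC1, 53.5 for mast cells and basophils, 158 for erythroid cells, 44.0 for epithelium and 71.5 for endothelium and stroma, with Cd4, Cd8a, Ncr1, Sftpc and Cdh5 at 0. Myeloid markers reached 2384 CPM (160 counts) in mature control replicate 1 and 167 CPM or less elsewhere. In the mature control group Lyz2, Cd68, Csf1r and Itgam were at 0. The counts of replicate 1 thus came from among S100a8, S100a9, Elane, Mpo, Ngp and Camp, the remaining markers of that list. This library is part of the lung against mature control comparison below. Csf1r and Itgam were at 0 in every library. The library labelled mature CD45 KO replicate 1 differed most from its group. A list of 28 immediate-early genes summed to 12408 to 20156 CPM in lung and 1297 to 1830 CPM in marrow, so it moved with every lung against marrow difference below, and its part in them was not tested. In bulk libraries, fewer cells of a type and less RNA per cell cannot be told apart.

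The 56 genes together took 1.73% to 2.16% of each library's counts. Eef1a1, which encodes the ubiquitous form of eEF1A, made up 39.3% of their counts over all libraries, a share of counts that is not per transcript length. Eef2 followed with 2532 counts, then Eef1b2 with 2483, Eif1 with 1953 and Eef1g with 1400. With a minimum count of 10, 28 of the 56 genes (23 Eif and 5 Eef) were abundant enough to be tested among 1916 genes in all. These were Eif1, the eIF2 beta subunit Eif2s2, 11 of 14 eIF3 genes, 7 of 10 eIF4 genes, Eif5, Eif5b, Eif5a, Eef1a1, Eef1b2, Eef1d, Eef1g and Eef2. The other 28 had 33 to 136 counts each over the 18 libraries and are given below only where their counts allow a statement.

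Lung and marrow ILC2 differed in single factors of both steps. Eif1, the gatekeeper of start codon choice, was 1.53-fold and Eef1a1 1.22-fold higher in lung, and their estimates lay above 0 in both genotypes and against both marrow stages, although for Eef1a1 only the CD45 KO comparisons passed the test. The scaffold of the cap complex, Eif4g1, and the subunit-joining GTPase Eif5b fell to about 0.550 and 0.531 of the marrow level. Taken singly, only the CD45 KO comparisons passed for both. Averaged over stages and genotypes, a contrast chosen after the data were seen, 9 of the 28 tested factors passed edgeR's quasi-likelihood test (Benjamini-Hochberg adjusted p under 0.05), 2 higher and 7 lower in lung. Of all 1916 tested genes 42.4% passed, 21.8% higher and 20.7% lower. The share of the factors that passed was thus below that of tested genes as a whole, a gap that was not tested. Their median log2 fold change was -0.14 beside -0.03 for all genes.

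**Figure D1:**
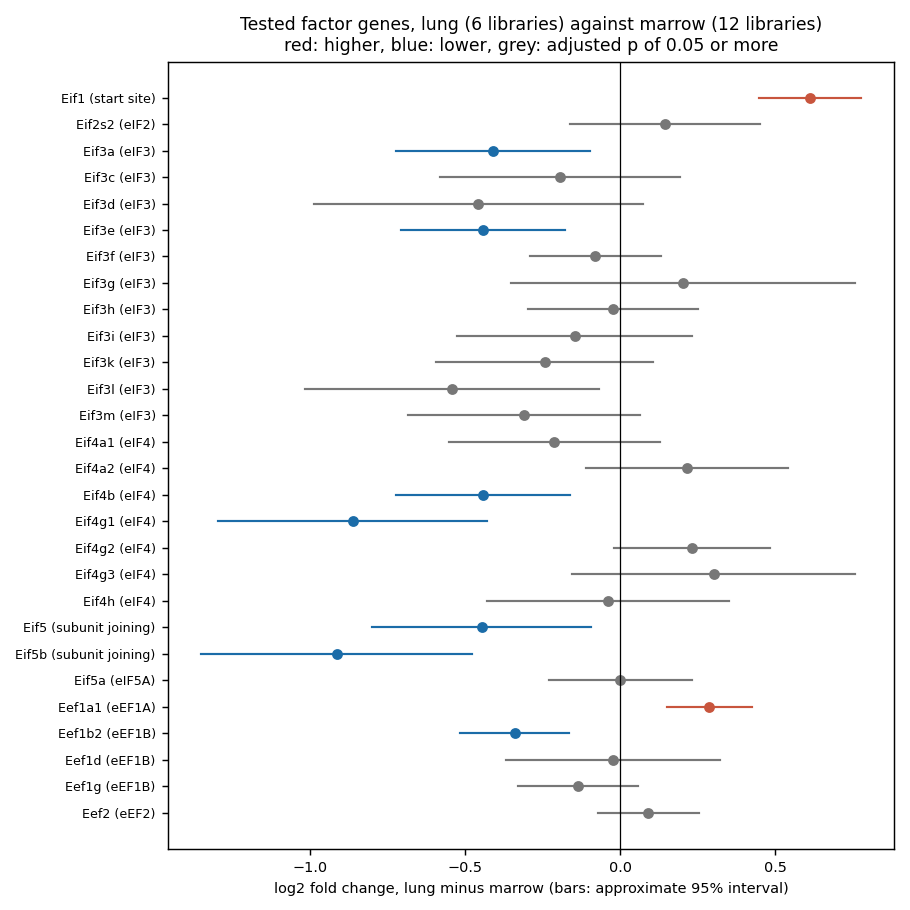
Log2 fold change (x axis) of each tested factor gene (y axis, role in brackets) in 6 lung against 12 marrow libraries, with approximate 95% intervals. Eif1 and Eef1a1 lie to the right of 0, and Eif5b (-0.91) and Eif4g1 (-0.86) lie farthest to the left.

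Eif1 lies on chromosome 11 (mm10 chr11:100319885-100322096, + strand). Its level was 1433, 1273 and 1477 CPM in lung control and 1724, 1601 and 1579 CPM in lung CD45 KO libraries, while the 12 marrow libraries ran from 808 to 1146 CPM with a median of 983. All 6 lung libraries lay above all 12 marrow libraries, an order that 10.4% of tested genes also showed, while 13.4% did not overlap in either direction. The log2 fold change of lung against marrow was 0.61 ± 0.08 (SE, adjusted p = 1.48e-09). Taken singly it was 0.42 ± 0.14 against mature control (adjusted p = 0.0182), 0.54 ± 0.14 against immature control (0.00188), 0.62 ± 0.14 against mature CD45 KO (0.000172) and 0.88 ± 0.14 against immature CD45 KO ILC2 (1.83e-07). The first of these was lost with DESeq2 (adjusted p = 0.0583) and when mature control replicate 1 or 3 or lung control replicate 1 or 3 was left out (up to 0.0811).

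Eef1a1 (chr9:78478449-78489151, - strand) reached 8057, 8856 and 8204 CPM in lung control and 9067, 9985 and 7961 CPM in lung CD45 KO libraries. Marrow libraries ran from 6557 to 7731 CPM with a median of 7056. Again every lung library lay above every marrow library. The log2 fold change was 0.29 ± 0.07 (SE, adjusted p = 0.000391). By genotype the rise passed in CD45 KO cells, by 0.34 ± 0.11 against mature (adjusted p = 0.0202) and 0.39 ± 0.11 against immature cells (0.00533), and did not pass in control cells, where it was 0.19 against mature and 0.23 against immature ILC2. Both CD45 KO calls rested on lung CD45 KO replicate 2, the highest library, without which their adjusted p rose to 0.137 and 0.0600, and the first was also lost without mature CD45 KO replicate 3, without the count minimum and with only the libraries compared (up to 0.136). The CD45 effect in lung minus that in marrow, which tests whether the tissue difference changed with genotype, was 0.16 ± 0.14 for Eef1a1 (adjusted p = 0.709).

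Eef2, the translocase (chr10:81176631-81182498, + strand), passed in 1 comparison, between lung and immature marrow of CD45 KO mice, with 1683, 1526 and 1808 CPM in lung against 1410, 1099 and 1208 CPM, with no overlap. The log2 fold change was 0.43 ± 0.14 (SE, adjusted p = 0.0126), and it rose to 0.0751 without immature CD45 KO replicate 2. Over all lung and marrow libraries the levels of Eef2 overlapped throughout, from 1358 to 1808 against 1099 to 1848 CPM, and the difference was 0.09 ± 0.08. The difference of Eef2 over the tissues as a whole did not pass (adjusted p = 0.390).

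**Figure D2:**
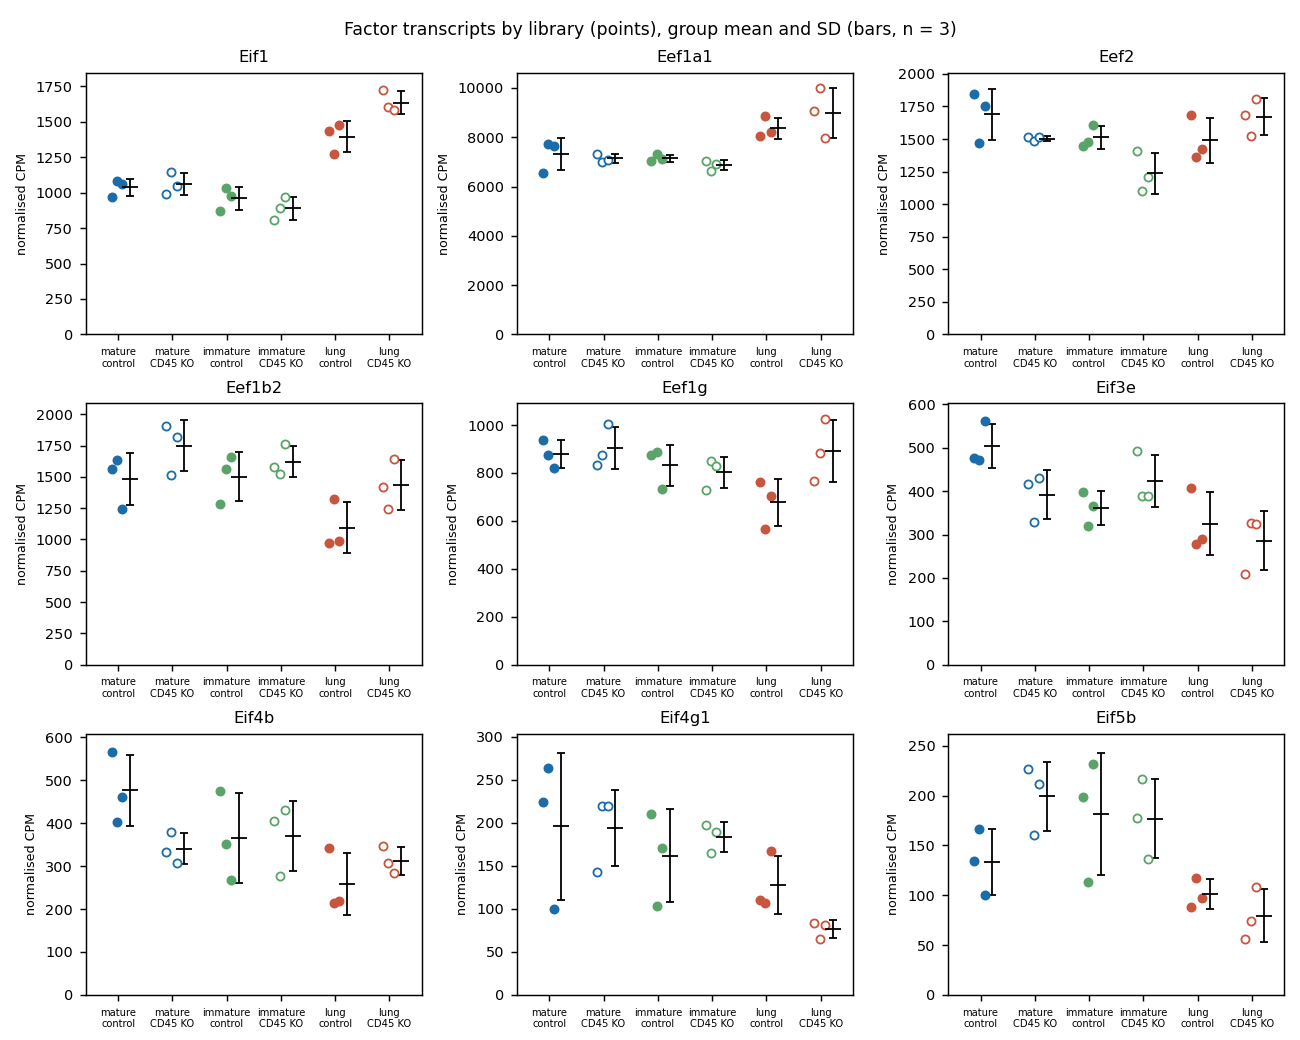
Level of 9 factor genes (y axes, TMM-normalised CPM starting at 0) in each of the 18 libraries by group (x axis). Filled points are control and open points CD45 KO libraries, and bars give the mean and SD of 3 libraries. Only the panels of Eif1 and Eef1a1 show all lung points above all marrow points.

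The region around the annotated start is shown for these 3 genes, since they share a short motif near the start, and for 3 that were lower in lung. Eif1 and Eef1a1 were higher in lung over all groups, whereas Eef2 passed only against immature CD45 KO ILC2. As the genes were picked for the motif, the contrast between the printed runs follows from that choice. A link of the motif to the levels was not tested. RefSeq promoters (GRCm38.p6) were found for 44 of the 56 genes. The runs span 50 bases before to 30 from the annotated start, 5′ to 3′ on the gene's strand, at chr11:100319899-100319978 (+, Eif1), chr9:78481695-78481774 (-, Eef1a1), chr10:81176581-81176660 (+, Eef2), chr1:63176781-63176860 (+, Eef1b2), chr15:102073723-102073802 (+, Eif4b) and chr1:37997960-37998039 (+, Eif5b). Capitals mark TATAA or CCGGAAG, the second a motif of the ETS factor type, each searched on both strands.
Eif1: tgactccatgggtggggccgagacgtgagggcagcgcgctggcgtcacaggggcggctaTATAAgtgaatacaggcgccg
Eef1a1: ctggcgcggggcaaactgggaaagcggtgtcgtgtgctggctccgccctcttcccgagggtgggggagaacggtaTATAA
Eef2: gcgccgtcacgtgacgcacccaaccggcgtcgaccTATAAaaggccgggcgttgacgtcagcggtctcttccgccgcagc
Eef1b2: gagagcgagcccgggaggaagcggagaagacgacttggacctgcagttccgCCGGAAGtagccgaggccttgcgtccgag
Eif4b: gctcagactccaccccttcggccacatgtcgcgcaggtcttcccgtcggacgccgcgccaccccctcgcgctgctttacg
Eif5b: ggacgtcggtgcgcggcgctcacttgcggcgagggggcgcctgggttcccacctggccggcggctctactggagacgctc
TATAA stood in these 80 bases in Eif1, Eef1a1 and Eef2 and in no other factor gene with an entry, 3 of 58 entries (5.17%), beside 8.14% of 32851 RefSeq promoters. The RefSeq starts of Eif1 and Eef1a1 lie inside the gene bounds given above, so the place of a motif depends on the annotated start. In Eef2 it begins at base 36 of the run, before the annotated start, and in Eif1 and Eef1a1 at bases 60 and 76, after it. CCGGAAG stood in 12 of the 58 entries (20.7%), Eef1b2 among them, beside 4.77% of all promoters. The matches are letters in a window and not measured sites. Among the 28 entries of tested factors TATAA stood in 3 (10.7%) and CCGGAAG in 4 (14.3%).

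Of the eIF3 complex, which bridges the small subunit and the cap complex, 11 genes were tested, and 10 had a log2 fold change below 0 in lung against marrow. Eif3e and Eif3a passed, 2 of 11, beside 42.4% of all tested genes, whose median log2 fold change was itself below 0 (-0.03). Eif3e was 408, 278 and 290 CPM in lung control, 209, 326 and 324 CPM in lung CD45 KO, and 321 to 561 CPM in marrow with a median of 408. Lung values lay at the low end, 3 of 6 below every marrow library, with overlap. Its log2 fold change was -0.44 ± 0.14 (SE, adjusted p = 0.00534) over both stages and -0.65 ± 0.21 (0.0134) between lung and mature control ILC2, the latter lost without mature control replicate 3 or lung control replicate 2 or 3, with DESeq2, with total-count scaling and without the count minimum. Over both stages the adjusted p was 0.0512 without lung CD45 KO replicate 1 and 0.109 without the count minimum.

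Eif3a, the largest scaffold subunit, was 165 to 407 CPM in lung and 227 to 431 CPM in marrow, with medians of 226 and 304. Its log2 fold change of -0.41 ± 0.16 (SE, adjusted p = 0.0313) was lost under 5 of 7 other settings and without any of 10 single libraries, lung control replicate 3 among them. The 9 other tested subunits did not pass, with log2 fold changes from -0.54 ± 0.24 for Eif3l (adjusted p = 0.0636) to 0.20 for Eif3g. Eif3f, the most counted of the complex, differed by -0.08. Summed over the 14 eIF3 genes the level was 2281 to 2770 CPM in lung and 2543 to 3283 CPM in marrow, overlapping ranges. Eif3j1 and Eif3j2, near-identical copies, had the same count in 17 of 18 libraries, so how reads were divided between them is uncertain.

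Among the eIF4 genes 2 of 7 passed, both lower in lung, beside 42.4% of all tested genes that passed and 20.7% that were lower. Eif4g1, the large scaffold that binds the cap-binding protein, the helicase and eIF3 (chr16:20668313-20692884, + strand), was 110, 107 and 167 CPM in lung control and 83.4, 65.1 and 81.0 CPM in lung CD45 KO libraries. Marrow libraries ran from 100.3 to 264 CPM with a median of 193, and the 3 lung CD45 KO libraries lay below all of them. Those 3 libraries held only 6, 7 and 6 counts of Eif4g1. The log2 fold change was -0.86 ± 0.22 (SE, adjusted p = 0.000836) over stages and genotypes. It was -1.39 ± 0.37 (0.00172) against mature and -1.27 ± 0.37 (0.00580) against immature marrow in CD45 KO cells, the latter 0.0599 without lung CD45 KO replicate 2, and no control comparison passed.

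Eif4b, a cofactor of the eIF4A helicase (chr15:102073773-102097173, + strand), was 342, 214 and 220 CPM in lung control against 566, 403 and 461 CPM in mature control libraries, without overlap. The log2 fold change was -0.89 ± 0.23 (SE, adjusted p = 0.00181), and it kept its call under all 8 other settings and without each library in turn (adjusted p up to 0.0462). Against immature control ILC2 it was -0.52 ± 0.24 (0.0973), and over all groups -0.44 ± 0.14 (0.00917), lost without lung control replicate 2 or 3 (up to 0.0568), with DESeq2, with total-count scaling and without the count minimum (up to 0.125). In CD45 KO cells it was 348, 307 and 283 CPM in lung, 334, 379 and 308 CPM in mature and 404, 277 and 431 CPM in immature libraries, which overlapped, and neither comparison passed. The CD45 effect in lung minus that in marrow was 0.52 ± 0.29 for Eif4b (adjusted p = 0.454), so a difference between genotypes did not pass either. The related scaffolds Eif4g2 and Eif4g3, the helicases Eif4a1 and Eif4a2 and the cofactor Eif4h did not pass over all groups, and their log2 fold changes were between -0.21 and 0.30.

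Eif5b and Eif5, which act at subunit joining and start codon recognition, were lower in lung over all groups, although the call of Eif5 was not stable. Eif5b (chr1:37998010-38055579, + strand) was 88.2, 118 and 96.7 CPM in lung control and 55.6, 74.4 and 108 CPM in lung CD45 KO, beside 100.3 to 232 CPM in marrow with a median of 172. Of the 6 lung libraries 4 lay below every marrow library. Counts were low, 8, 11 and 11 in lung control and 4, 8 and 8 in lung CD45 KO libraries. The log2 fold change was -0.91 ± 0.22 (SE, adjusted p = 0.000452), and it passed without each library and under each of 7 other settings, as did the change of Eif4g1. In CD45 KO cells alone it was -1.30 ± 0.35 (0.00248) against mature and -1.17 ± 0.36 (0.00918) against immature marrow. The second was lost without immature CD45 KO replicate 2 or lung CD45 KO replicate 1 or 2 (adjusted p up to 0.0858). It was also lost with DESeq2 and without the count minimum. No control comparison passed for Eif5b. Eif5, which activates the GTPase of eIF2, was 128 to 243 CPM in lung and 166 to 346 CPM in marrow, and its fall by 0.45 on the log2 scale (adjusted p = 0.0385) was lost without any of 11 single libraries, lung control replicate 3 among them, and under 5 of 7 other settings.

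In single comparisons the counts of factors that passed were as follows. Lung against mature control ILC2 gave 4 of 28 (Eif1 higher, Eef1b2, Eif3e and Eif4b lower), beside 25.6% of all tested genes, and 7 of 28 did not overlap, beside 37.8%. Lung against immature control gave 2 (Eif1 higher, Eef1b2 lower), beside 25.5%, with 4 not overlapping, beside 38.4%. In CD45 KO cells lung against mature marrow gave 4 (Eif1 and Eef1a1 higher, Eif4g1 and Eif5b lower), beside 24.3%, with 9 not overlapping, beside 35.2%. Lung against immature marrow of that genotype gave 5 (Eif1, Eef1a1 and Eef2 higher, Eif4g1 and Eif5b lower), beside 25.3%, with 9 not overlapping, beside 37%. Every one of these shares lay below that of all tested genes, some of them only slightly. With 28 factors the gaps are of few genes, and whether the shares differ was not tested. The first count was 2 without lung control replicate 3 and 1 with DESeq2, the second 4 without immature control replicate 1 or replicate 3, and the last 3 without lung CD45 KO replicate 2. Each count with a library left out includes Eif2s3y, which then passed the count minimum. Eif1 was the factor called in all 4. With total counts in place of TMM factors the median of all genes moved by 0.15 in lung against mature control and by 0.10 over all groups, and the split over all groups became 4 higher (Eef2 and Eif4g2 added) and 4 lower in place of 2 and 7. No factor that passed turned its direction.

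The eEF1B complex did not follow eEF1A. Eef1b2, its catalytic alpha subunit (chr1:63176825-63180486, + strand), was 970, 1326 and 985 CPM in lung control against 1565, 1638 and 1243 CPM in mature control and 1282, 1561 and 1660 CPM in immature control libraries. Replicate 2 of lung control overlapped with marrow, and lung control replicates 1 and 3 lay below it. Lung CD45 KO libraries had 1419, 1247 and 1646 CPM, within the marrow range of 1243 to 1906 CPM, and no CD45 KO comparison passed. In control cells the log2 fold changes were -0.43 ± 0.15 (SE, adjusted p = 0.0254) against mature and -0.46 ± 0.15 (0.0134) against immature ILC2. Over all groups the value was -0.34 ± 0.09 (0.00121). Each of the first 2 was lost without any of 4 single libraries, lung control replicate 1 or 3 among them (adjusted p up to 0.163), with total-count scaling and without the count minimum (up to 0.497). The first was also lost with DESeq2, and the value over all groups without the count minimum (0.0810). Eef1g, the gamma subunit, differed by -0.14 over all groups and by -0.37 ± 0.16 (adjusted p = 0.0935) between lung and mature control, and Eef1d, the delta subunit, by -0.02 over all groups.

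Set against each other within a library, where no scaling between libraries enters, Eef1a1 counts were 4.21 ± 0.0544 times (SD, n = 3) the sum of Eef1b2, Eef1d and Eef1g in lung control. The ratio was 2.83 ± 0.467 in mature control, 2.57 ± 0.197 in mature CD45 KO, 2.80 ± 0.183 in immature control and 2.57 ± 0.181 in immature CD45 KO. In lung CD45 KO it was 3.93, 4.31 and 2.69, so replicate 3 lay among the marrow libraries, which reached 3.34. Apart from that library, all lung libraries lay above all marrow libraries. These are ratios of counts and not of molecules per length.

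Elongation against initiation was compared as the counts of the 9 Eef genes over those of the 47 Eif genes in each library. The ratio was 1.58, 1.69 and 1.59 in lung control and 1.78, 1.84 and 1.68 in lung CD45 KO. It was 1.37, 1.48 and 1.48 in mature control, 1.62, 1.35 and 1.45 in mature CD45 KO, 1.52, 1.65 and 1.42 in immature control and 1.37, 1.46 and 1.36 in immature CD45 KO libraries. Lung libraries thus lay at the high end, from 1.58 to 1.84, with overlap by 2 marrow libraries at 1.62 and 1.65. Eef genes took 1.23% to 1.40% of lung counts and 1.03% to 1.19% of marrow counts, with no overlap, and Eif genes took 0.761% to 0.813% and 0.701% to 0.803%, which overlapped. In TMM-normalised CPM the summed Eef level overlapped too, from 11642 to 13893 in lung and from 10462 to 12214 in marrow. Without Eef1a1 the ratio was 0.469 to 0.634 in lung and 0.497 to 0.617 in marrow, ranges that overlapped throughout.

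**Figure D3:**
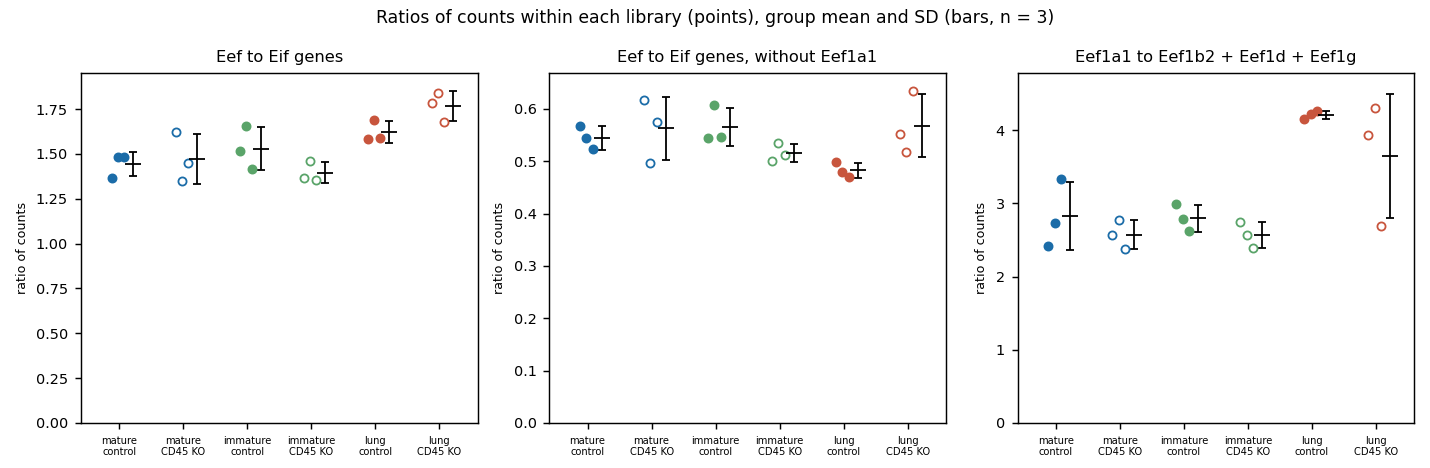
Ratios of counts within each library (y axes, starting at 0) by group (x axis), with the mean and SD of 3 libraries. Filled points are control and open points CD45 KO. The left panel shows lung at 1.58 to 1.84, the middle panel no such order without Eef1a1, and the right panel lung control at 4.15 to 4.26.

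The eIF2 complex, which brings the initiator tRNA, held the 1 factor with 0 counts in every library of a tissue, the Y-linked Eif2s3y. Eif2s2 was 220 to 267 CPM in lung and 168 to 273 CPM in marrow and did not pass (log2 fold change 0.15). The gamma subunit is encoded by 2 genes, Eif2s3x on the X chromosome (chrX:94188707-94212862, - strand) and Eif2s3y on the Y chromosome (chrY:1010543-1028847, + strand). Eif2s3y had 3 to 12 counts in each of the 12 marrow libraries, 81 in all, and 0 counts in each of the 6 lung libraries, which is at least 13.1-fold lower against a floor of 3 counts over the lung libraries. Eif2s3x had 4 to 11 counts in lung and 0 to 14 in marrow. Eif2s3y was too low to be tested with the count minimum. Without it, among 12945 genes of which 9.20% were called, Eif2s3y passed (adjusted p = 1.38e-11).

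Other Y-linked genes, Ddx3y, Kdm5d and Uty, also had 0 counts in all lung libraries, with 103, 24 and 37 counts in marrow. Xist, the RNA of the inactive X chromosome, had 52 to 105 counts in each lung library and 0 in every marrow library. Sex is not given in the labels, and in these libraries the sex-linked transcripts and the tissue cannot be told apart. This holds for every lung against marrow difference reported here and not for the CD45 comparisons within a tissue. Together Eif2s1, Eif2s2, Eif2s3x and Eif2s3y summed to 342 to 382 CPM in lung and 334 to 578 CPM in marrow.

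**Figure D4:**
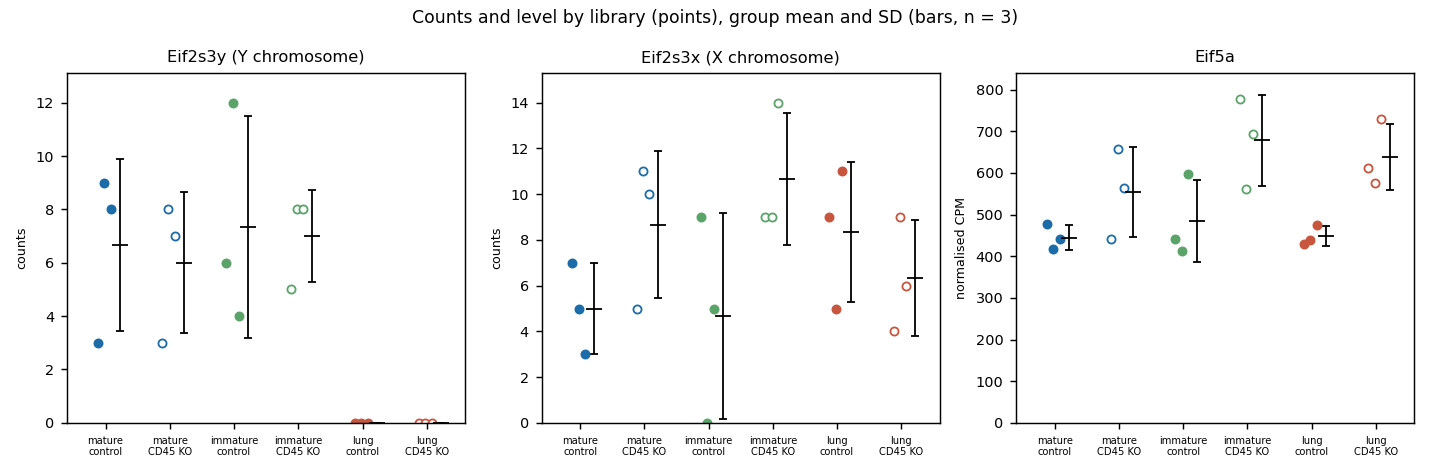
Counts of Eif2s3y and Eif2s3x and level of Eif5a (TMM-normalised CPM) in each library by group (x axis), with the mean and SD of 3 libraries. Filled points are control and open points CD45 KO. Eif2s3y is at 0 in all 6 lung libraries, and Eif5a means are higher in CD45 KO within each population.

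Of the other low-count factors, Eif1a, the autosomal eIF1A gene, had 1 or 2 counts in each lung library and 1 to 12 in marrow. Without the count minimum it fell by 1.37 ± 0.47 on the log2 scale (SE, adjusted p = 0.0404), and it did not pass in any single comparison. Eif1ax, the X-linked eIF1A gene, had 5 to 11 counts in lung and 4 to 15 in marrow. The cap-binding protein Eif4e had 67 counts in all, 1 to 5 in each lung and 1 to 7 in each marrow library, and no difference was detectable at this depth. The same held for the inhibitors of eIF4E, Eif4ebp1 (33 counts), Eif4ebp2 (115) and Eif4ebp3 (78), for the eIF2B subunits Eif2b1, Eif2b2 and Eif2b4 (35 to 49), for the eEF2 kinase Eef2k (64), for the exon junction helicase Eif4a3 (114) and for the ribosome anti-association factor Eif6 (89). With no count minimum, Eif2s3y and Eif1a were the only ones of these 28 called in any comparison.

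No tested factor passed the test for loss of CD45 within a single population. With edgeR, 0 of 28 passed in mature ILC2 (beside 0.261% of all tested genes), 0 in immature ILC2 (1.67%) and 0 in lung ILC2 (2.51%). DESeq2 also called 0 in each. In simulated counts 48%, 61.6% and 46% of 2-fold changes passed in these comparisons, so changes of that size can be missed. The simulation gave every gene the same spread and held no outlying library. It changed about 100 genes 2-fold and as many 4-fold, beside 5, 32 and 48 genes that passed in the data. The share found in the data may therefore be lower. The difference of the CD45 effect between lung and marrow passed for 0 of 28 (smallest adjusted p = 0.264, 0 with DESeq2), beside 1.25% of all genes. DESeq2 gave no adjusted p to factors its own filter removed, which left 12 in lung. Genotypes did not overlap for 5 factors in mature ILC2 (12.8% of all tested genes), for 1 in immature ILC2 (17.9%) and for 5 in lung ILC2 (19.7%), the last being Eif1, Eif5a, Eef1g and Eif3h, higher in CD45 KO, and Eif4g1, lower.

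Averaged over the 3 populations 1 factor of 28 (3.57%) passed, beside 2.97% of all tested genes, which is near the background. It was Eif5a, which helps ribosomes form difficult peptide bonds and is the protein that carries hypusine (chr11:69916714-69921958, - strand). Its level was 477, 416 and 441 CPM in mature control and 441, 657 and 563 CPM in mature CD45 KO libraries. In immature ILC2 it was 442, 414 and 598 CPM in control and 779, 563 and 693 CPM in CD45 KO. In lung it was 430, 439 and 475 CPM in control and 612, 577 and 729 CPM in CD45 KO.

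The genotypes did not overlap for Eif5a in lung and overlapped in both marrow populations, by 1 library in mature and by 1 in immature cells. The mean log2 fold change was 0.44 ± 0.11 (SE, adjusted p = 0.0122), and it passed under each other setting and without each library in turn (adjusted p up to 0.0406). Within populations it was 0.34 ± 0.19 in mature (adjusted p = 0.627), 0.49 ± 0.18 in immature (0.178) and 0.50 ± 0.19 in lung (0.155) ILC2. In lung, CD45 KO libraries also had more immediate-early transcripts (18941 to 20156 CPM beside 12408 to 14483 in control), whose part in the lung value was not tested. In marrow these sums overlapped between genotypes.

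Next in order were Eef1b2 (0.25 ± 0.08, adjusted p = 0.0851), Eif3k (-0.46 ± 0.16, 0.113) and the helicase Eif4a1 (0.45 ± 0.16, 0.113), which did not pass, although Eef1b2 did without lung control replicate 2. For Eef1a1 the mean CD45 effect was 0.00, with an approximate 95% interval from -0.13 to 0.13. For Eif1 it was 0.05, with an interval from -0.11 to 0.21, and for Eef2 it was -0.10, with an interval from -0.25 to 0.05. In lung Eef1b2 and Eef1g had higher means in CD45 KO than in control, 1437 beside 1094 CPM and 891 beside 677 CPM, but neither passed (adjusted p = 0.173 and 0.205). In mature ILC2 the largest difference was that of Eef1d, 134 beside 253 CPM, with no overlap and an adjusted p of 0.234.

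**Figure D5:**
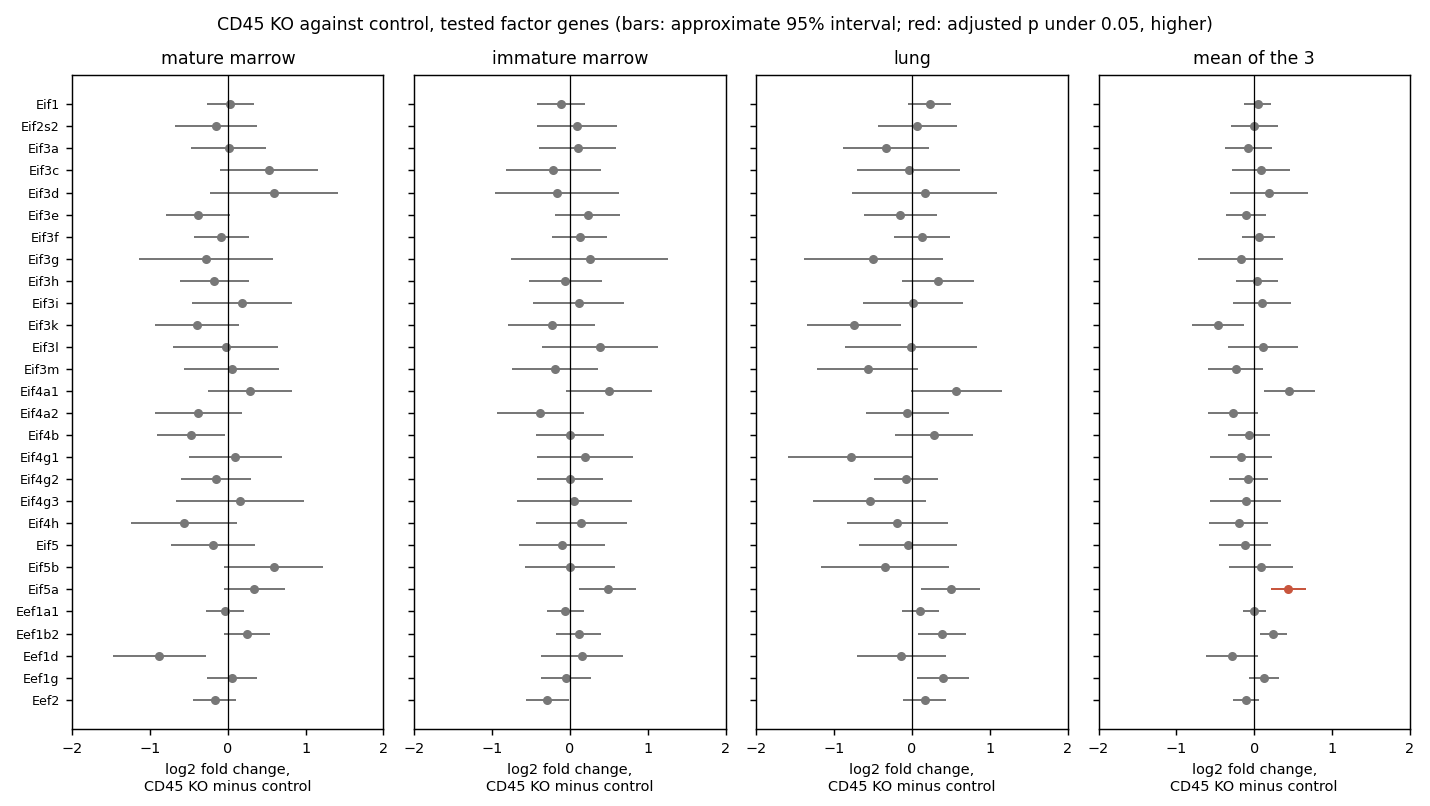
Log2 fold change of CD45 KO against control (x axes) for each tested factor gene (y axis) in the 3 populations and for their mean, with approximate 95% intervals. Eif5a in the right panel, at 0.44, is the 1 point that passed.

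Between mature and immature marrow ILC2 no factor passed the test. In control cells 0 of 28 passed (beside 0.0522% of all genes), and in CD45 KO cells 0 of 28 (0.678%), and DESeq2 called 0 in both. Stages did not overlap for 3 factors in control (10.2% of all genes) and 5 in CD45 KO cells (12.6%). In control cells Eif3e had 477, 472 and 561 CPM in mature and 398, 321 and 366 CPM in immature libraries, without overlap (log2 fold change 0.49 ± 0.21, adjusted p = 0.858). In CD45 KO cells Eef1d had 119, 135 and 150 CPM in mature and 256, 208 and 305 CPM in immature libraries, also without overlap (-0.89 ± 0.28, adjusted p = 0.143).

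Genes that act beside the factors were taken from lists by role, and of most lists only a few members were abundant enough to test. In lung against marrow, where 42.4% of all tested genes passed and 21.8% were higher, both tested members of the list of eIF2 alpha kinases and their response passed, higher: Ppp1r15a, which recruits the phosphatase of eIF2 alpha (417 beside 17.4 CPM, log2 fold change 4.58 ± 0.24 SE, adjusted p = 6.61e-31), and Atf4, its transcription factor (0.87 ± 0.25, 0.00293). Of 8 tested mTOR and MNK regulators 4 passed, near the share of all tested genes. Rheb, an activator of mTORC1, was higher (0.82 ± 0.29, 0.0159), and 3 were lower: the mTORC1 inhibitors Ddit4 (-2.60 ± 0.26, 1.14e-14) and Sesn1 (-1.14 ± 0.30, 0.00103), and Pdcd4 (-0.35 ± 0.15, 0.0459), which binds the eIF4A helicase. Taken singly, Ppp1r15a and Ddit4 passed in all 4 comparisons of lung with marrow and Sesn1 only in those of control cells. Atf4, Rheb and Pdcd4 passed in none of them. Ppp1r15a is itself a stress-induced gene and moved with the immediate-early list described above. It reached the count minimum only through lung, and Ddit4 (26.0 CPM in lung control beside 239 CPM in mature control) through marrow. The direction of their calls is thus tied to the filter. Of the 11 genes of the eIF2 alpha kinase list in the count table only 2 were tested.

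In the same contrast, to be read against the same 42.4%, the remaining lists had few tested genes each. Of 3 poly(A)-binding genes Pabpc1 passed (4922 beside 3680 CPM, 0.43 ± 0.08, 1.85e-06), higher in lung. A further list had 6 tested helper genes (Ddx3x, Dhx9, Rack1, Naca, Btf3 and Tpt1), not all of them initiation genes. Of these the helicase Ddx3x passed, also higher (689 beside 254 CPM, 1.42 ± 0.12, 1.13e-17). Ddx3x is X-linked, and its Y-linked copy Ddx3y had 103 counts in marrow and 0 in lung. The limit on sex-linked transcripts given above thus holds for Ddx3x too. Of 3 tested tRNA synthetase genes Eprs was higher (1.60 ± 0.15, 5.20e-16) and Vars lower (-0.52 ± 0.19, 0.0191). The termination factor Gspt1 (-0.77 ± 0.28, 0.0207) and the ribosome rescue factor Nemf (-0.78 ± 0.31, 0.0361) were lower, which were both tested members of their list. Taken singly, Vars passed only against immature control, Gspt1 only against immature CD45 KO ILC2, and Nemf in no comparison. Of 11 further elongation genes 0 were abundant enough to test. For loss of CD45, none of the tested members of these lists passed in mature or immature ILC2. In lung, CD45 KO cells had more Rack1, a ribosomal scaffold (0.44 ± 0.13, 0.0440), and Tpt1 (0.38 ± 0.11, 0.0467), 2 of the 6 helper genes. Of all tested genes 2.04% were higher there (39, beside 48 with size factors and 23 with total counts). Both calls lay near the threshold of 0.05.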

How the data were processed

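Values are the authors' deposited whole-number counts per gene symbol, 1 column per library, not scaled between libraries. Per the labels' protocols, an oligo-dT primer with a molecular barcode was used and cDNA was amplified by PCR, so counts lean to the 3′ end. STAR and mm10 are named in the submitters' processing notes, without versions. How reads were counted, with which annotation, strand setting and barcode collapsing, is not stated by the labels, so near-identical copies and overlapping genes are uncertain.

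Counts were scaled with TMM factors, filtered with filterByExpr by group (minimum count 10), and fitted with edgeR 4.0.16 (R 4.3.3) as 6 group means over 18 libraries, with quasi-likelihood tests and Benjamini-Hochberg adjustment over all 1916 genes tested, threshold 0.05. Library sizes were totals over all genes. Standard errors are the absolute log2 fold change over the square root of F, and intervals are 1.96 standard errors. Total counts of 68077 to 122250 limit precision: a tested factor had a median of 21.0 counts per library. Samples were grouped by the labels' population and genotype. Floors cover counting error only.

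The factors, gene lists and comparisons were chosen with earlier results of these data known. Named were factors past the threshold in any comparison, a panel of core factors, the 3 tested factors with the largest change in a comparison, those next to the summed count of 30, and up to 4 passing genes per list, of which the text gives a part. Alternatives were DESeq2 size factors, total counts, no filter, at least 10 counts in each of 3 libraries, DESeq2 1.42.0 with its Wald test, only the libraries compared, a replicate block, no Rn45s and Rn4.5s rows, and each library left out. Positions are from GENCODE M21. Steps were tested on simulated data.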

Additional observations from a re-analysis of the deposited data

How the results depend on the processing

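Under the other settings run, each factor kept its direction in the comparisons in which it had passed. Factors that had not passed were not followed, and those with differences near 0, such as Eef1d and Eif3f in lung against marrow, lie within the shift of 0.10 that total-count scaling gives all genes. Of the comparisons, lung against mature control changed most: 1 factor (Eif4b) passed with the DESeq2 Wald test in place of 4. Leaving out single libraries gave 2 to 4 factors for lung against mature control, 2 to 4 against immature control, 4 to 6 against mature CD45 KO, 3 to 6 against immature CD45 KO, 7 to 11 over all groups and 1 to 2 for the mean CD45 effect. With 2 libraries left in a group, the filter also admitted low factors such as Eif2s3y. The mean ratio of elongation to initiation counts moved with the choice of genes. By function it was 1.63 in mature control, 1.72 in mature CD45 KO, 1.75 in immature control, 1.68 in immature CD45 KO, 1.86 in lung control and 2.08 in lung CD45 KO. With tested factors only it was 1.69, 1.74, 1.79, 1.65, 1.85 and 2.0003 in the same order, and without Eef1a1 it was 0.545, 0.563, 0.566, 0.516, 0.482 and 0.568.

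Replicate numbers did not pair the libraries: the deviations of same-numbered libraries correlated at -0.0888 to 0.0755 over 45 pairs. With the number as a replicate block the counts of factors were the same in all comparisons, 4, 2, 4 and 5 for lung against the 4 marrow groups, 9 over all groups, 1 for the mean CD45 effect and 0 for the others.

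Depth limits the low factors: at 25.3 to 44.7 CPM for 3 counts, the 28 untested factors cannot show moderate changes. Groups of 3 libraries, unknown animals, the sex-linked difference between tissues and the immediate-early transcripts of lung bear on all lung against marrow values.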
